A study of Saccharomyces cerevisiae with 12 samples.

Results

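The 10 genes described here encode enzymes that act on the beta-glucan of the yeast cell wall: GAS1, GAS3 and GAS5, BGL2, SCW4 and SCW10, EXG1 and EXG2, and CRH1 and UTR2. They were chosen as enzymes of this kind and matched by their systematic names, with earlier results of these data known but by no threshold on their counts, and all 10 were found among the 7192 features of the count table and passed the filter on low counts. Poly-A selected RNA was sequenced from 6 wild-type Saccharomyces cerevisiae samples treated with a lectin of the clam Cyclina sinensis and from 6 wild-type control samples that were left untreated. By the study's title this lectin, a protein that binds sugars, is specific for N-acetylgalactosamine and mannose. Cultures of both groups were shaken at 200 rpm in rich YPD medium, kept at 30 °C, and taken in mid-logarithmic growth. The strain, the lectin dose, the time of treatment, and whether controls received a buffer are not given in the sources used here. Samples carry the numbers of their titles, which are 2, 3, 4, 5, 6 and 8 in the lectin group and 2, 3, 4, 6, 7 and 8 in the control group. Nothing in the labels says that these came from separate cultures, so the p-values measure the spread between these samples, which may be partly technical.

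The inner layer of the yeast wall is a network of beta-1,3-glucan, made at the plasma membrane and then cut, lengthened and joined outside the cell to beta-1,6-glucan and chitin. Mannoproteins are attached to this network and form the outer layer. The enzymes described here do the cutting and joining: the Gas proteins lengthen beta-1,3-glucan chains, Bgl2 and its relatives Scw4 and Scw10 are glucanases or glucanosyltransferases of the wall, Exg1 and Exg2 are exoglucanases, and Crh1 and Utr2 link chitin to glucan. Several of these genes are transcribed in particular phases of the cell cycle, when the bud wall is built.

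In the lectin samples the exoglucanase genes EXG1 and EXG2 and the chitin-glucan transglycosylase genes CRH1 and UTR2 were higher by 1.13- to 1.23-fold, and SCW4 was lower at 0.838-fold. In each of these 5 genes the 6 lectin samples did not overlap the 6 control samples. Over all genes tested, the groups did not overlap in 12.6%, and 31.5% differed at an adjusted p under 0.05 (DESeq2). GAS5 rose by 1.07-fold and GAS3 fell to 0.903-fold, both close to the threshold. GAS1, BGL2 and SCW10 did not pass the test. Taken by function, both exoglucanases and both chitin-glucan transglycosylases were higher. The GAS family had a call in each direction, and of BGL2, SCW4 and SCW10 only SCW4 was called.

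Total counts ran from 17303313 to 21354011 in the lectin samples and from 17380109 to 19753992 in the control samples. Lectin 5, the largest library, lay farthest from the others of its group over all tested genes, with a mean distance of 21.3 against 18.0 to 19.1 for the other lectin samples and 16.4 to 18.1 for the control samples (Euclidean, on log2 of normalized counts plus 1). Over the 10 genes it was the highest lectin sample in 7 (GAS3, GAS5, BGL2, SCW4, EXG2, CRH1 and UTR2) and the lowest in SCW10. Control 4 was the lowest control sample in 6 of the 10. For the 10 genes and their ratios, the value without lectin 5 is given below where leaving it out changes the call.

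The genes differed widely in level. On the RPKM scale, computed here from the counts, the coding length in kilobases and the total of each library, BGL2 was the most abundant at 2216 ± 68.6 in lectin and 2124 ± 70.9 in control samples (SD, n = 6 each). EXG1 followed at 1864 ± 116 in lectin and 1631 ± 31.5 in control samples, then SCW10 at 1135 ± 112 in lectin and 1178 ± 54.1 in control samples, and GAS1 at 883 ± 37.7 in lectin and 923 ± 34.5 in control samples (SD, n = 6 each). No sample of one of these 4 genes overlapped its neighbour in this order within a group. GAS5 was at 457 to 496 in lectin and 413 to 472 in control samples, and EXG2 at 379 ± 18.6 in lectin and 308 ± 15.7 in control samples (SD, n = 6 each). GAS3 and UTR2 were the least abundant, with 63.1 ± 4.07 and 53.3 ± 1.81 in lectin samples, against 70.0 ± 4.73 and 47.4 ± 1.62 in control samples (SD, n = 6 each).

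CRH1 and SCW4 exchanged places in this order. Per length, CRH1 was at 624 ± 21.3 in lectin and 544 ± 24.0 in control samples, and SCW4 at 607 ± 52.0 in lectin and 726 ± 17.4 in control samples (SD, n = 6 each). CRH1 lay above SCW4 in 3 of 6 lectin samples and in 0 of 6 control samples. This pair was picked after its values were seen and was not tested. Summed over the 10 genes, the level was 8303 ± 183 in lectin and 8002 ± 124 in control samples (SD, n = 6 each), and the genes together held 1.06% ± 0.0257 of all counts in lectin and 1.02% ± 0.0156 in control samples.

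**Figure D1:**
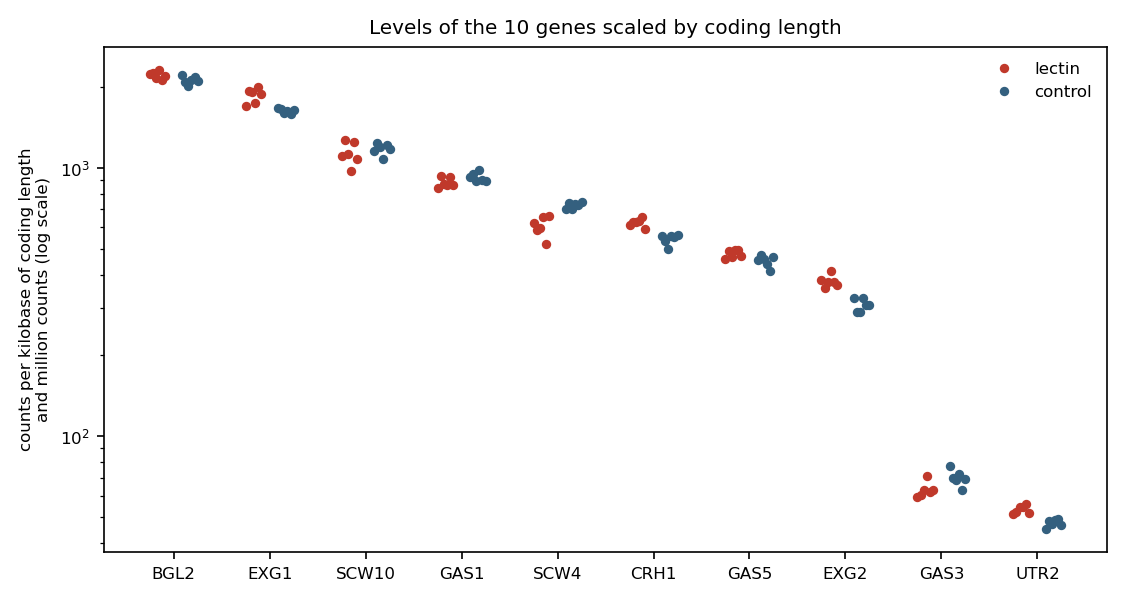
Level per coding length on the RPKM scale (log axis) for the 10 genes, ordered by their control mean; each point is a sample, with the 6 lectin samples in red on the left of each gene and the 6 control samples in blue on its right. BGL2 leads at 2216 in lectin and 2124 in control samples, and GAS3 and UTR2 lie far below the rest.

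The 500 bases before each start codon were searched for short motifs of regulators linked to the cell cycle or the cell wall, on both strands. The members were chosen by function, and their motif counts were not tested against those of all windows. CGCGAAA, a form of the site bound by Swi4 at the start of the cell cycle, was found before 6 of the 10 genes (GAS1, GAS3, SCW4, SCW10, EXG2 and UTR2) and in 5.82% of 6000 such windows of protein-coding genes. Other forms of that site were not searched. The stretches that hold CGCGAAA are shown because both genes called lower (SCW4 and GAS3) and genes called higher (EXG2 and UTR2) are among them. Sequences are from the R64 assembly, written in the direction of the gene, with the motif or its reverse complement in capitals.
GAS1, chrXIII:886621-886677, plus strand: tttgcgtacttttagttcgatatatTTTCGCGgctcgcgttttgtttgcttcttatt
GAS3, chrXIII:696599-696655, plus strand: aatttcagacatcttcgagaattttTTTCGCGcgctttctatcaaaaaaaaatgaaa
SCW4, chrVII:1050360-1050416, minus strand: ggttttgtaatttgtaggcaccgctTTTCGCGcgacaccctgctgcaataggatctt
SCW10, chrXIII:880603-880659, minus strand: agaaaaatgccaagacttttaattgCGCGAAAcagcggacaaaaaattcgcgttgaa
EXG2, chrIV:979338-979394, minus strand: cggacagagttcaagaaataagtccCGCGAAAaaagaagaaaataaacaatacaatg
UTR2, chrV:77791-77847, plus strand: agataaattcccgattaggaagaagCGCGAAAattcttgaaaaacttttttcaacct

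The motif began 357 bases before the start codon in GAS1, 172 in GAS3, 433 in SCW4, 402 in SCW10, 160 in EXG2 and 237 in UTR2. Of 340 tested genes with CGCGAAA in this window, 15.3% were called higher with lectin, against 15.4% of all genes tested. Of the same 340 genes, 68 were called lower, a larger share than the 16.1% of all genes tested. The share called higher was near the background, the share called lower was above it, and neither difference was tested. Among the members with the motif, 2 were called higher, 2 lower and 2 not called, and nothing is read from that split.

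The related ACGCGT was found before SCW10 and CRH1 and in 5.42% of the windows. The consensus of Rlm1, the transcription factor at the end of the cell wall integrity pathway, was found before GAS5 and BGL2 and in 1.82% of the windows. TGAAACA, bound by the mating regulator Ste12, was found before 6 members (BGL2, SCW4, SCW10, EXG2, CRH1 and UTR2) and in 12.0% of windows. AGGGG, bound by the stress factors Msn2 and Msn4, was found before 0 of the 10 genes and in 34.1% of windows. EXG1 was the only member with none of the 5 motifs in its window. The Rlm1 and ACGCGT stretches are shown for the genes without CGCGAAA.
GAS5, chrXV:268039-268098, plus strand: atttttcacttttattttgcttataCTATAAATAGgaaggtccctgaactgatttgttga
BGL2, chrVII:1058909-1058968, minus strand: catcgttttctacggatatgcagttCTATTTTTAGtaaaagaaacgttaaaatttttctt
CRH1, chrVII:878581-878636, minus strand: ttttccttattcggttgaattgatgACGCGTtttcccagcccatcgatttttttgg

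The comparison of lectin with control samples was made gene by gene on the whole table. Of 6237 genes tested with DESeq2, 31.5% differed at an adjusted p under 0.05, 15.4% higher and 16.1% lower with lectin, so a call alone does not set a gene apart here. Of the 10 members, 7 were called, 5 higher and 2 lower. Normalized counts, which are counts divided by a size factor per library, did not overlap between the groups in 5 members, against 12.6% of all genes tested. The median log2 fold change was 0.078 over the members and 0.0017 over all genes tested, and no member came near the absolute log2 fold change of 1 that the study required. Without lectin 5, 6 members were called, 4 higher and 2 lower.

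**Figure D2:**
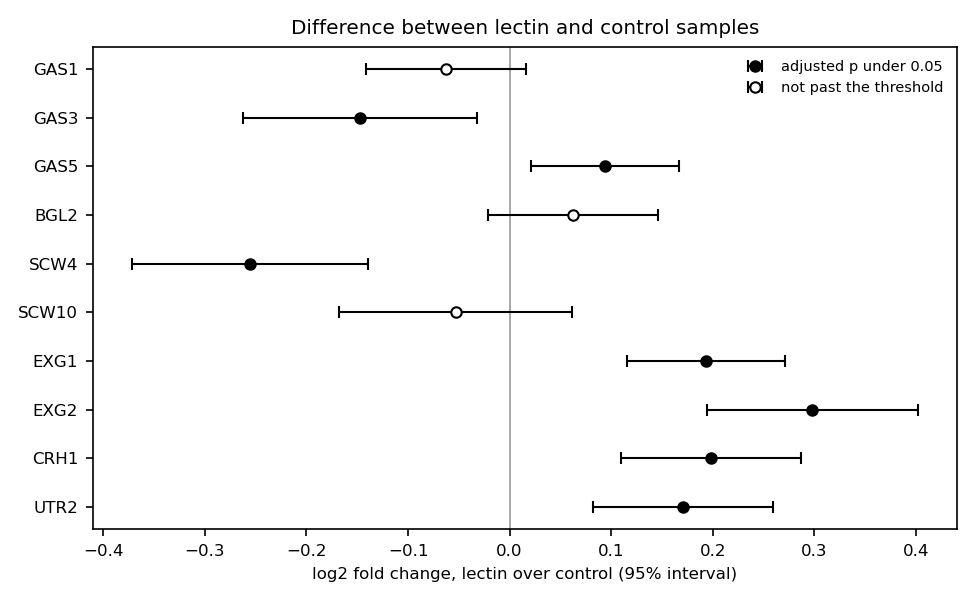
Log2 fold change of lectin over control for each of the 10 genes (DESeq2), with 95% intervals; filled points have an adjusted p under 0.05 and open points do not. EXG1, EXG2, CRH1 and UTR2 lie between 0.17 and 0.30, SCW4 at -0.26.

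EXG1 (YLR300W, chromosome XII, 728955 to 730301, plus strand, a single coding exon) encodes the main secreted exo-beta-1,3-glucanase. Its normalized counts ran from 42579 through a median of 47060 to 48477 in the lectin samples, and from 38546 through 40820 to 41233 in the control samples. Every lectin sample was above every control sample, with lectin 2 and lectin 5 nearest to the controls. The log2 fold change was 0.19 ± 0.040 (SE; adjusted p = 1.5e-05 with DESeq2 and 0.00425 with edgeR). Its closest copy in the genome, SPR1, is 70.5% identical over 1181 bases.

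EXG2 (YDR261C, chromosome IV, 977521 to 979209, minus strand) encodes a second exo-beta-1,3-glucanase, held at the membrane or wall by a GPI anchor, and showed the largest rise among the members. Normalized counts were 11103, 11678 and 13096 in the lectin samples (lowest, median and highest), against 8801, 9692 and 10307 in the control samples. The groups did not overlap, and lectin 5 was the highest. Its log2 fold change was 0.30 ± 0.053 (SE), a 1.23-fold rise (adjusted p = 3.6e-07 with DESeq2 and 4.9e-04 with edgeR). Within a sample EXG1 exceeded EXG2 by 3.94 ± 0.385 times in lectin and 4.23 ± 0.214 times in control samples (ratio of counts, SD, n = 6), and this ratio did not pass the test (exact two-sided permutation p = 0.167, adjusted 0.210).

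CRH1 (YGR189C, chromosome VII, 876669 to 878192, minus strand) and UTR2 (YEL040W, chromosome V, 78053 to 79456, plus strand; also called CRH2) encode GPI-anchored transglycosylases that attach chitin to beta-glucan. CRH1 had 16410, 17683 and 18192 normalized counts in the lectin samples (lowest, median and highest), against 13595, 15706 and 15921 in the control samples. UTR2 had 1319, 1382 and 1434 in the lectin samples, against 1158, 1220 and 1304 in the control samples. In both genes each lectin sample lay above each control sample, and lectin 8 came nearest to the controls.

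The log2 fold change was 0.20 ± 0.045 (SE) in CRH1 and 0.17 ± 0.045 (SE) in UTR2, with adjusted p-values of 1.2e-04 and 0.00116 in DESeq2. In edgeR the adjusted p-values were 0.00521 and 0.00613. The proteins are 35.9% identical over 410 aligned residues. CRH1 counts exceeded UTR2 counts by 12.7 ± 0.233 times in lectin and 12.5 ± 0.721 times in control samples (SD, n = 6). That ratio did not pass the test, and no lectin sample lay outside the control range (exact two-sided permutation p = 0.426, adjusted 0.426).

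**Figure D3:**
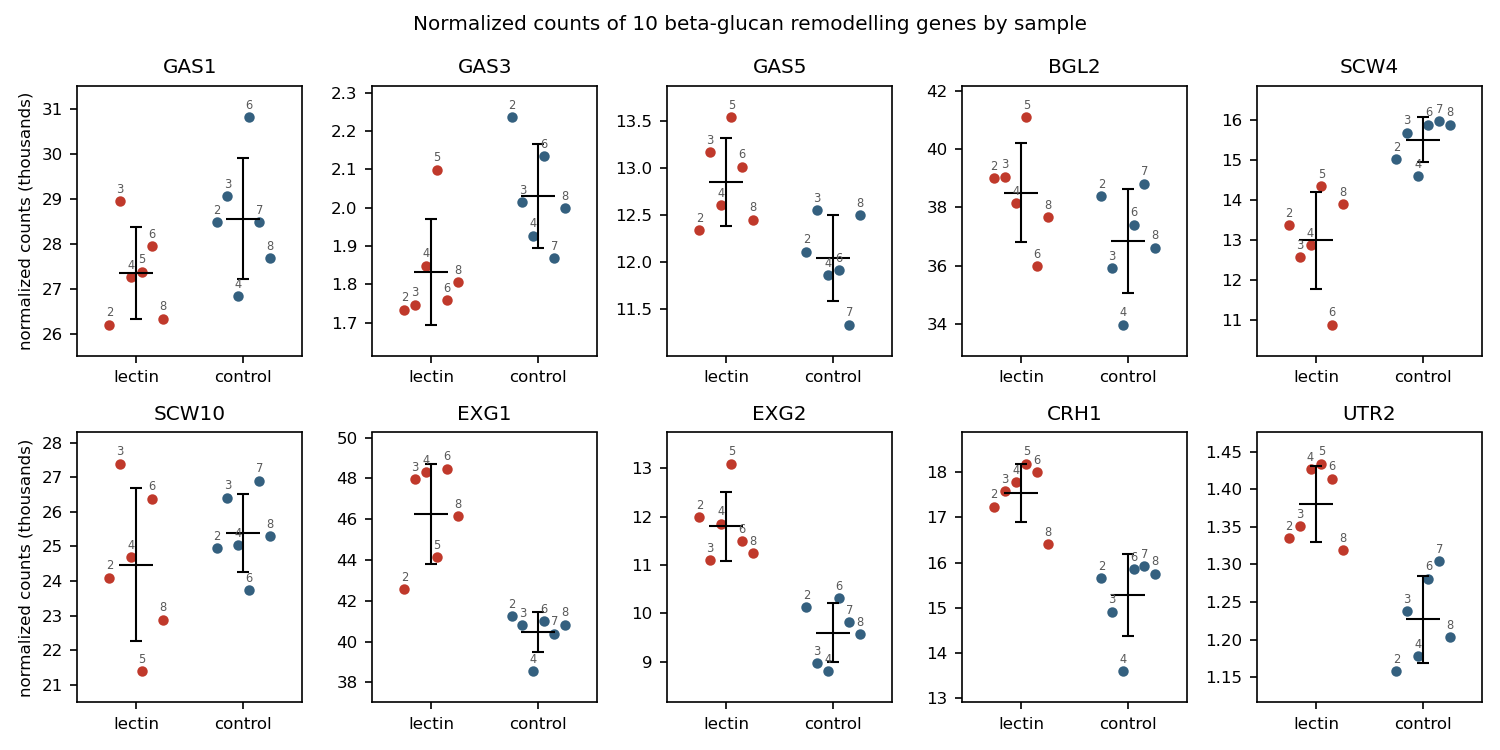
Normalized counts (axis in kilocounts) for each of the 10 genes, with lectin samples in red on the left and control samples in blue on the right of each panel; numbers are the sample numbers, bars the mean ± SD of 6 samples, and the vertical axes do not start at 0. The groups do not overlap in SCW4, EXG1, EXG2, CRH1 and UTR2.

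SCW4 (YGR279C, chromosome VII, 1048798 to 1049958, minus strand), which encodes a wall protein related to glucanases, had the largest fall among the members. Normalized counts were 10891, 13128 and 14363 in the lectin samples (lowest, median and highest), against 14612, 15792 and 15982 in the control samples. All 6 lectin samples were below the lowest control, and their coefficient of variation was 9.40% against 3.63% in the controls. Its log2 fold change was -0.26 ± 0.059 (SE; adjusted p = 1.6e-04 with DESeq2 and 0.00350 with edgeR).

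SCW10 (YMR305C, chromosome XIII, 879063 to 880232, minus strand) encodes the closest relative of Scw4, with 63.2% identity over 383 aligned residues. It had 21392, 24390 and 27390 normalized counts in the lectin samples (lowest, median and highest), against 23734, 25169 and 26901 in the control samples, and the groups overlapped. The log2 fold change was -0.05, with a 95% interval from -0.17 to 0.06 and an adjusted p of 0.520 (DESeq2). The genes are 72.4% identical over 776 bases, the longest match between them, and how the authors treated reads that fit both is not given in the sources used here.

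The within-sample ratio of SCW4 to SCW10 counts was 0.538 ± 0.0950 in lectin and 0.612 ± 0.0320 in control samples (SD, n = 6). It was below every control in 4 of 6 lectin samples and did not pass the test (exact two-sided permutation p = 0.104, adjusted 0.208). Lectin 5 had the highest ratio, 0.671, and without that sample the mean log2 ratio differed by -0.271 with an adjusted p of 0.0416 (exact permutation test). SCW4 alone of these relatives was therefore called, but a difference between its change and that of SCW10 was not shown over all 12 samples.

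BGL2 (YGR282C, chromosome VII, 1057783 to 1058724, minus strand) encodes an abundant endo-beta-1,3-glucanase and glucanosyltransferase of the wall. It had 36000, 38583 and 41090 normalized counts in the lectin samples (lowest, median and highest), against 33987, 37018 and 38818 in the control samples. The groups overlapped, and 3 of 6 lectin samples exceeded the highest control. The log2 fold change was 0.06, with a 95% interval from -0.02 to 0.15 and an adjusted p of 0.268 (DESeq2).

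SCW4 alone separated the groups and BGL2 alone did not, so their ratio does not show a change in BGL2. The ratio of BGL2 to SCW4 counts was 2.98 ± 0.207 in lectin and 2.38 ± 0.100 in control samples (SD, n = 6), with no overlap. The mean log2 ratio was higher by 0.323 in the lectin samples (exact two-sided permutation p = 0.00216, the smallest that 6 against 6 can give, adjusted 0.00577 over 8 pairs). For BGL2 and SCW10 the ratio was 1.59 ± 0.196 in lectin and 1.45 ± 0.0900 in control samples and did not pass (SD, n = 6; exact permutation p = 0.169, adjusted 0.210).

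GAS1 (YMR307W, chromosome XIII, 887003 to 888682, plus strand) encodes the main beta-1,3-glucan elongase, a GPI-anchored protein. It had 26197, 27314 and 28942 normalized counts in the lectin samples (lowest, median and highest), against 26835, 28477 and 30815 in the control samples. The groups overlapped in all but 2 lectin samples, and the log2 fold change was -0.06 with a 95% interval from -0.14 to 0.02 and an adjusted p of 0.234 (DESeq2).

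GAS5 (YOL030W, chromosome XV, 268187 to 269641, plus strand), another elongase gene, had 12339, 12810 and 13539 normalized counts in the lectin samples (lowest, median and highest), against 11336, 12012 and 12552 in the control samples. In 4 of 6 lectin samples it exceeded every control. The log2 fold change was 0.09 ± 0.037 (SE; adjusted p = 0.0382 with DESeq2 but 0.107 with edgeR). The call was also lost without lectin 3, lectin 4, lectin 5, lectin 6, control 2, control 4, control 6 or control 7, with adjusted p-values from 0.0219 to 0.374 over all alternatives. Without both lectin 5 and control 7 the log2 fold change was 0.06 and was not called (adjusted p = 0.153, DESeq2).

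GAS3 (YMR215W, chromosome XIII, 696796 to 698370, plus strand) encodes a family member for which no elongase activity has been found in vitro. It had 1734, 1782 and 2099 normalized counts in the lectin samples (lowest, median and highest), against 1869, 2007 and 2236 in the control samples. In 5 of 6 lectin samples it was below every control, and lectin 5 at 2099 lay within the control range. The log2 fold change was -0.15 ± 0.059 (SE; adjusted p = 0.0419 with DESeq2 and 0.0506 with edgeR). The call was kept without lectin 5 (-0.19, adjusted p = 8.1e-04 in DESeq2), control 4 or control 7, and lost without any other single sample.

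Although no GAS gene changed by much, the ratios of GAS1 and of GAS3 to GAS5 separated the groups. The ratio of GAS1 to GAS5 counts was 2.13 ± 0.0596 in lectin and 2.37 ± 0.146 in control samples, and that of GAS3 to GAS5 was 0.143 ± 0.00820 in lectin and 0.169 ± 0.0106 in control samples (SD, n = 6). Neither ratio overlapped between the groups. The mean log2 ratio was lower in the lectin samples by a difference of -0.156 for GAS1 to GAS5 and -0.242 for GAS3 to GAS5 (exact two-sided permutation p = 0.00216 and adjusted 0.00577 for each). The ratio of GAS1 to GAS3 was a mean log2 of 3.90 ± 0.119 in lectin and 3.82 ± 0.086 in control samples and did not pass (SD, n = 6; exact permutation p = 0.184, adjusted 0.210), but without lectin 5 its log2 difference was 0.125 with an adjusted p of 0.0416 (exact permutation test). In all, 3 of the 8 pairs passed, and the 8 are not independent because they share genes. How often ratios of other gene pairs would pass in these data was not computed, so the count does not set these families apart. A ratio within a library needs no scaling between libraries, and it does not tell which of its genes changed.

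**Figure D4:**
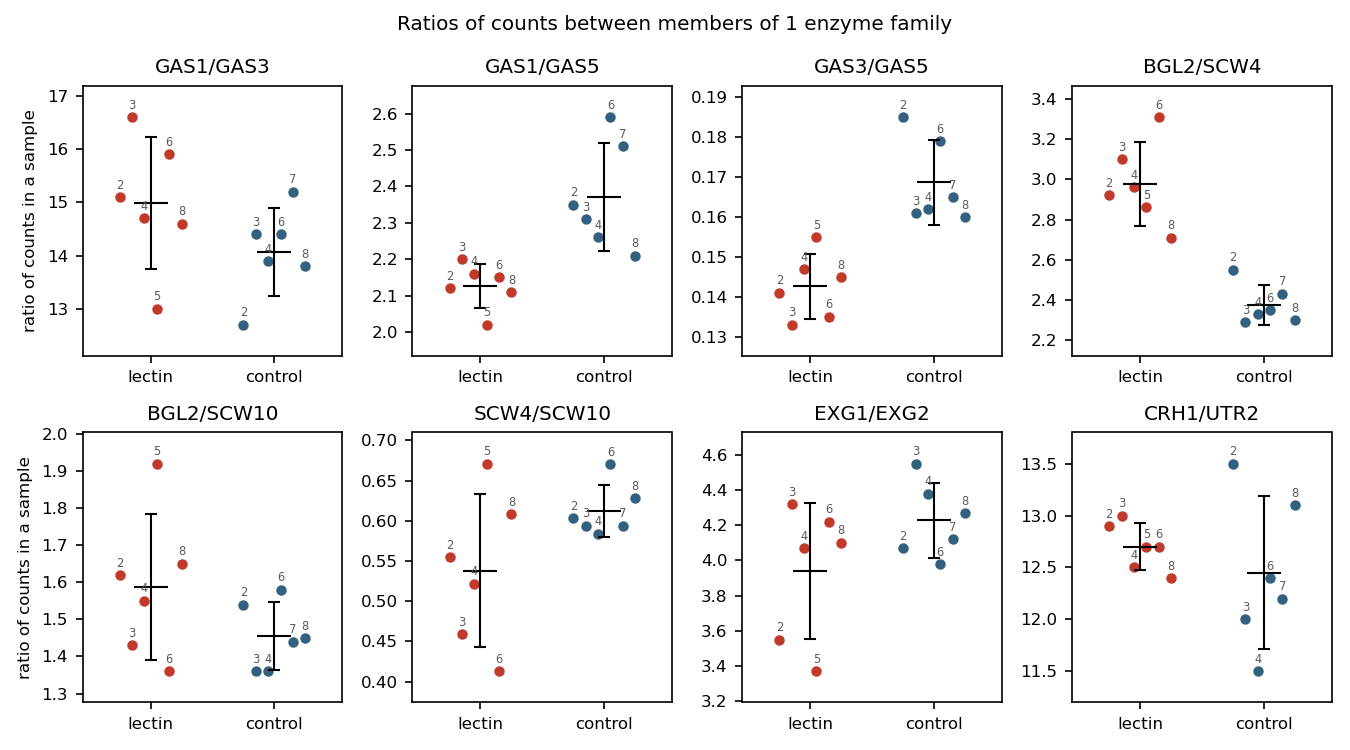
Ratio of counts between 2 members of a family in each sample, for 8 pairs, with lectin samples in red on the left and control samples in blue on the right of each panel; numbers are the sample numbers, bars the mean ± SD of 6 samples, and the vertical axes do not start at 0. GAS1/GAS5, GAS3/GAS5 and BGL2/SCW4 do not overlap between the groups, and lectin 5 is the highest lectin sample in SCW4/SCW10.

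Other genes of beta-glucan metabolism moved in both directions as well. Of 12 further genes for glucan-active or glucanase-like enzymes, 5 were called higher and 3 lower, with a median log2 fold change of 0.004 (without lectin 5, 5 higher and 4 lower). Over all genes tested, 15.4% were called higher and 16.1% lower. CRR1, the third gene of the CRH family, had 425 ± 25.1 normalized counts in lectin and 709 ± 31.7 in control samples (SD, n = 6). Its log2 fold change was -0.74 (adjusted p = 4.4e-35 with DESeq2 and 2.3e-08 with edgeR). GAS4, a sporulation relative of GAS1, had 364 ± 35.8 in lectin and 505 ± 33.0 in control samples (SD, n = 6), a log2 fold change of -0.47 with an adjusted p of 3.6e-09 (DESeq2). SPR1, the sporulation relative of EXG1, was higher with 463 ± 41.0 in lectin and 373 ± 30.7 in control samples (SD, n = 6), a log2 fold change of 0.31 with an adjusted p of 2.8e-04 (DESeq2). SCW11, a glucanase-like gene expressed in daughter cells, was higher with 2883 ± 183 in lectin and 2286 ± 115 in control samples (SD, n = 6), a log2 fold change of 0.33 with an adjusted p of 1.7e-09 (DESeq2). GAS2, another sporulation relative of GAS1, was at -0.03 and was not called (adjusted p = 0.686, DESeq2). The CRH family held genes that rose (CRH1 and UTR2) and one that fell (CRR1).

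Some genes that make the glucan were called, against a background of 31.5% of all genes tested. For beta-1,3-glucan synthase and its activators 2 of 7 genes were called higher and 1 lower, with a median log2 fold change of 0.069, and without lectin 5 there were 4 higher and 1 lower. RHO1, the GTPase that activates the synthase, was lower with 12689 ± 538 normalized counts in lectin and 14532 ± 394 in control samples (SD, n = 6), a log2 fold change of -0.20 with an adjusted p of 9.3e-07 (DESeq2). FKS3, a relative of the catalytic subunits, was higher by a log2 fold change of 0.27 (adjusted p = 0.00646, DESeq2), and ROM1, an exchange factor for Rho1, by 0.12 (adjusted p = 0.0492, DESeq2, but 0.0706 in edgeR). The main catalytic subunit gene FKS1 was at 0.02 (adjusted p = 0.875, DESeq2). For beta-1,6-glucan synthesis 0 of 9 genes were called higher and 1 lower, KNH1 at -0.20 (adjusted p = 0.00431, DESeq2). Without lectin 5 there were 1 higher and 1 lower in that list.

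Transcripts of the cell wall integrity pathway, whose kinase cascade responds to wall stress, were set beside these genes. Of 9 such genes 6 were called higher and 0 lower, with a median log2 fold change of 0.238. CWP1, YPS1 and PIR3 were not called, at log2 fold changes of 0.10, 0.03 and -0.03 (adjusted p of 0.422, 0.833 and 0.901 in DESeq2). The shares over all genes tested were 15.4% higher and 16.1% lower. RLM1, its transcription factor, had 4606 ± 697 normalized counts in lectin and 3182 ± 220 in control samples (SD, n = 6), a log2 fold change of 0.53 (adjusted p = 5.8e-09, DESeq2). SLT2, its kinase, was higher by 0.40, the wall protein gene PST1 by 0.44 and PRM5 by 0.28 (log2 fold changes, adjusted p of 7.3e-11, 4.2e-21 and 1.0e-07 in DESeq2). In edgeR these adjusted p-values were 6.1e-05, 5.7e-06 and 2.2e-04. GAS5 and BGL2, whose windows hold the Rlm1 consensus, were at 0.09 and 0.06 on the same scale. Of 101 tested genes with that consensus in the window, 26.7% were called higher and 14.9% lower, against 15.4% and 16.1% of all genes tested. Neither difference was tested, and the part of Rlm1 in these changes was not tested either.

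Transcripts of particular cell-cycle phases differed between the groups too. Their calls stand beside 15.4% of all genes tested called higher and 16.1% called lower. Among G1/S transcripts 0 of 8 were called higher and 6 lower (7 lower without lectin 5), with a median log2 fold change of -0.354. The G1 cyclin gene CLN2 had 2281 ± 80.8 normalized counts in lectin and 3250 ± 179 in control samples (SD, n = 6). Its log2 fold change was -0.51 (adjusted p = 5.0e-28 with DESeq2 and 3.2e-07 with edgeR). PCL1, SVS1 and RNR1 were lower by log2 fold changes of -0.59, -0.53 and -0.44 (adjusted p of 2.6e-18, 8.3e-07 and 5.1e-11 in DESeq2). Summed over the list, normalized counts were 15183 to 17237 in lectin and 20203 to 25017 in control samples.

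Of 8 histone transcripts, which peak in S phase, 0 were called higher and 7 lower, with a median of -0.303 and sums of 55387 to 65805 in lectin and 69260 to 76385 in control samples. HTB2 was at -0.74, HTA2 at -0.61, HHT1 at -0.51 and HHF2 at -0.32 on the log2 scale (adjusted p of 4.2e-04, 3.1e-27, 1.2e-08 and 4.3e-08 in DESeq2), and since each histone has a near-identical gene copy, the split of reads between copies is uncertain. Of 8 G2/M transcripts 0 were higher and 4 lower, with a median of -0.160 and sums of 10626 to 11745 in lectin and 11202 to 13431 in control samples. Among all genes tested 15.4% were called higher and 16.1% lower. The mitotic cyclin genes CLB1 and CLB2 were at -0.38 and -0.23, HOF1, which acts in cytokinesis, at -0.28 and the transcription factor gene SWI5 at -0.19 (adjusted p of 5.7e-09, 0.0133, 6.5e-06 and 0.00406 in DESeq2). Of 8 M/G1 transcripts 6 were higher and 0 lower (5 and 0 without lectin 5, and also with edgeR), with a median of 0.176 and sums of 23546 to 25169 in lectin and 20376 to 21245 in control samples. ASH1 and EGT2, both expressed after mitosis, were higher by log2 fold changes of 0.45 and 0.38 (adjusted p of 1.4e-25 and 3.1e-09 in DESeq2, 1.4e-06 and 1.0e-04 in edgeR). The cyclin gene PCL9 and the replication licensing gene CDC6 were higher by 0.25 and 0.20 (adjusted p of 4.7e-04 and 0.0213 in DESeq2). The part of cell-cycle phase in the changes of the glucan enzyme genes was not tested. In RNA from whole cultures, a change in the share of cells in a phase and a change in the RNA of each cell cannot be told apart.

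**Figure D5:**
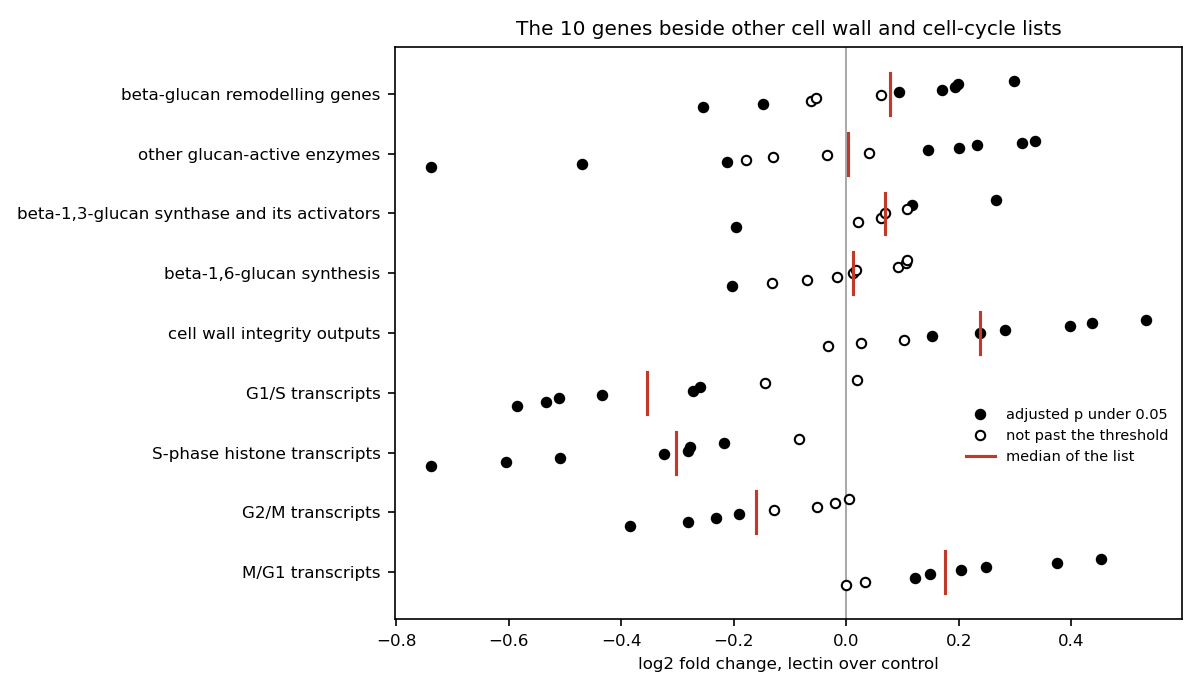
Log2 fold change of lectin over control for each gene of the 10 beta-glucan remodelling genes and 8 other lists; filled points have an adjusted p under 0.05 (DESeq2), open points do not, and the red line is the median of the list. The 10 genes spread on both sides of 0, whereas called G1/S, histone and G2/M transcripts are lower and called cell wall integrity and M/G1 transcripts are higher.

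No gene of the RefSeq annotation of R64 overlaps a member. Features that the count table may hold outside that annotation were not checked for overlap. Of the 16 tested genes that lie next to a member, 6 were called, 4 higher and 2 lower, against 31.5% called over all genes tested. Another 3 neighbours, next to EXG2 and CRH1, were not matched to the count table. FKS3 lies between SCW10, which is transcribed away from it across 926 bases, and GAS1, which starts 486 bases after its end. FKS3 was called higher, and neither SCW10 nor GAS1 was called. PXR1, upstream of SCW4 on the same strand, was higher by a log2 fold change of 0.30 (adjusted p = 6.3e-04, DESeq2) while SCW4 was lower. UPA1, upstream of BGL2, was higher by 0.24 (adjusted p = 4.0e-05, DESeq2), and HRI1, downstream of EXG1, was lower by a log2 fold change of -0.17 (adjusted p = 0.00429, DESeq2) while EXG1 was higher. On the sides of GAS5, SIL1 was at -0.13 and YOL029C at 0.27 (log2 fold change, adjusted p = 0.0217 and 9.9e-04 in DESeq2).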

How the data were processed

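The values are the authors' unnormalized counts of reads for each gene, made from paired-end data with HISAT2 and featureCounts after trimming, per the labels and the submitters' processing notes, which also name fastp and the R64 genome. Versions, annotation, strand setting and the treatment of multi-mapping reads are not given in the sources used here; with strand-blind counting, reads of opposite strands cannot be told apart. All 12 columns were used.

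Of 7192 features, the 6237 that reached 10 counts in 6 or more samples were tested for lectin over control with the DESeq2 Wald test (1.42.0, R 4.3.3; median-of-ratios size factors, Benjamini-Hochberg adjustment over all tested genes, unshrunken log2 fold changes), the tool the labels name. A call is an adjusted p under 0.05. edgeR 4.0.16 (quasi-likelihood) and limma-voom (limma 3.58.1) were alternatives, and the fits were tested on 1 set of simulated data. There each recovered most changed genes with the right sign, but the share of false calls was above the nominal level with DESeq2 and close to it with edgeR and limma-voom, so a call that edgeR does not make (GAS3, GAS5 and ROM1 among the genes named) is the less certain. For the called genes named from the other lists, the adjusted p-value was larger in edgeR than in DESeq2, often by many orders of magnitude. Where only the DESeq2 value is printed, it overstates the certainty that edgeR gives. Ratios of counts within families were compared by exact two-sided permutation over the samples (scipy 1.17.1), adjusted over 8 pairs. Positions, lengths and upstream sequences come from the RefSeq copy of R64; identities from Biopython 1.88 and BLAST 2.17.0. The 30 same-group pairs of samples differed beyond sampling noise (chi-square per degree of freedom 6.71 to 59.1).

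The members and gene lists were chosen with earlier results of these data known, so no p is adjusted over a list. Every member is named. Of each other list, the 4 called genes with the largest absolute log2 fold change and a mean of at least 50 normalized counts are named, and of neighbouring genes those called. FKS1, GAS2, CWP1, YPS1 and PIR3 were named after their values were seen.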

Additional observations from a re-analysis of the deposited data

Results flagged for a closer look

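In 36 groups of 6 values (10 genes and 8 ratios, each in both groups), 2 held a single sample far from the others by Dixon's 95% limit for the gap over the range, where chance gives about 1.80. GAS3 was at 2099 normalized counts in lectin 5, against 1734 to 1849 in the other lectin samples. EXG1 was at 38546 in control 4, against 40387 to 41233 in the other control samples, and without control 4 its call was kept.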

How the results depend on the processing

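SCW4, EXG1, EXG2, CRH1 and UTR2 kept their direction and their call in each of 23 alternatives, and GAS1, BGL2 and SCW10 were called in none. GAS3 lost its call in 11 of the 23 and GAS5 in 14. The number of members called was 5 to 6 with a sample left out and 5 to 7 otherwise (5 with edgeR or upper-quartile size factors). Over all genes it ran from 1646 to 2418 with a sample left out, 2418 without lectin 5. The median log2 fold change of all genes stayed between -0.0039 and 0.0031. With a sample left out, the log2 difference in ratio ran from 0.056 to 0.125 for GAS1 to GAS3 and from -0.271 to -0.131 for SCW4 to SCW10, and both passed only without lectin 5.

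The groups share 5 sample numbers, whose meaning the labels leave unstated. Deviations of same-numbered samples correlated from -0.122 to 0.186 over all genes tested and from -0.279 to 0.657 over the 10 members, so they were not taken as pairs. A replicate block on the number called 6 members, 4 higher and 2 lower, the same count as without the block on those 10 samples. GAS5 was then at 0.062 in both fits. Under the block the calls were 1 higher and 0 lower in the beta-1,6-glucan list, 4 and 0 in M/G1, 5 and 0 in cell wall integrity and 4 and 4 in the other glucan-active enzymes, and were as before in the remaining 4 lists. In the ratios, the block gave -0.125 for GAS1 to GAS5, -0.273 for GAS3 to GAS5 and 0.341 for BGL2 to SCW4, where 5 pairs cannot reach a p below 0.0625 before adjustment.

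With edgeR the calls were 1 higher and 1 lower in the beta-1,3-glucan synthase list and 5 and 0 in M/G1. They were as before in the remaining lists. Counts of the other lists without lectin 5, with edgeR and with the block were added after the data were seen.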
